A study of Drosophila melanogaster with 10 samples.

Results

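The Polycomb group genes followed here are 10 fly genes, chosen by a measured value, the deposited count of one of them, Su(z)2, which differs between tables for the same libraries (0 in each PARIS WT library in one table and 638 to 1222 in another). The other 9 were taken with it as its partners in the Polycomb complexes, namely Psc, Pc, ph-p, ph-d, Sce, E(z), esc, Su(z)12 and Scm. All 10 were found by FlyBase identifier among the 17716 gene identifiers of the table that holds the 3 transgenic groups. The study sequenced mRNA from fly heads after TRAP, the affinity purification of translating ribosomes. The driver dTH-GAL4 directs UAS-GFP::RpL10A, a green fluorescent ribosomal protein, to dopaminergic (DA) neurons, so that their ribosome-bound mRNA can be pulled down. All TRAP libraries share the strain background w1118XdTH-Gal4, and TRAP control flies carried dTH-GAL4 with the tagged ribosomal protein alone. PARIS WT and PARIS C571A flies carried in addition human PARIS, a zinc finger repressor, as wild type or as the C571A mutant that the study describes as transcriptionally inactive, from pUAST constructs injected into w1118 embryos. Each of the 3 groups had 3 libraries of pooled male and female heads, 500 heads per library for TRAP control and PARIS C571A and 1500 for PARIS WT. The labels give an age of 30 days for every sample, whereas the methods place the collection shortly after eclosion. A single library labelled whole brain, of w1118 flies of wild type genotype, is total mRNA of the whole head according to the protocol and was not affinity purified.

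Polycomb group proteins keep developmental genes silent in cells where they are not to be used. Polycomb repressive complex 2 (PRC2) methylates histone H3, with E(z) as the methyltransferase, esc as a WD40 protein that binds the histone and stimulates E(z), and Su(z)12 as a further core subunit. Polycomb repressive complex 1 (PRC1) holds Pc, whose chromodomain binds that methyl mark, Psc or its paralog Su(z)2, which compact chromatin and are homologs of the mammalian PCGF proteins, the polyhomeotic proteins ph-p and ph-d, which polymerise through a SAM domain, and Sce, the RING finger ubiquitin ligase for histone H2A. Scm carries MBT repeats and a SAM domain and links both complexes. In flies these proteins are best known for holding the Hox genes silent outside their segments.

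The genes ph-p and ph-d arose by a tandem duplication on the X chromosome. This bears on how their counts can be read, which is why stretches of both sequences are shown. Of 4530 aligned coding positions, 91.1% were identical between ph-p (4767 coding bases) and ph-d (4611 coding bases). The longest identical run held 528 bases, and its first 150 bases are printed here from both genes as read from the Release 6 genome, minus strand, chrX:2130971-2131120 for ph-p and chrX:2121067-2121216 for ph-d, with no capitals because no base differs.
ph-p: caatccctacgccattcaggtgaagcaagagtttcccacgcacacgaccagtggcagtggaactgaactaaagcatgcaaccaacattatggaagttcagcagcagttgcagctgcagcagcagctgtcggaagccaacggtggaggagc
ph-d: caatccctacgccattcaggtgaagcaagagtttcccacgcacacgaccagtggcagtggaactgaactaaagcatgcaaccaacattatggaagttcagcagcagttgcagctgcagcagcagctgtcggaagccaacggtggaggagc
The most different aligned stretch of 90 coding bases without gaps lies at chrX:2127187-2127276 in ph-p and chrX:2117244-2117333 in ph-d, and the 39 positions that differ between the genes are in capitals.
ph-p: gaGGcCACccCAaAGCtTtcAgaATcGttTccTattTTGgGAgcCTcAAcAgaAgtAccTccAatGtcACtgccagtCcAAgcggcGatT
ph-d: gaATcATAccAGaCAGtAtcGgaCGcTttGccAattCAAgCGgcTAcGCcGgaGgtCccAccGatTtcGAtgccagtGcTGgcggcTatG
Over all exons, 24.6% of the 100-base windows of ph-p also occurred in ph-d and 27.7% of those of ph-d in ph-p, so a read of that length from these windows fits both genes. Shorter windows were shared more often, at 33% and 37.2% with 36 bases. The read length of the libraries is not stated here. A read from the stretch with capitals fits 1 of them. The sum of the counts of both genes is given beside the single counts. It would not depend on how shared reads were divided if each were counted once. For these estimated counts that was not tested.

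The 10 genes lie on 5 chromosome arms of the BDGP6 assembly. Su(z)2 (FBgn0265623, 2R, 12996501 to 13007911, plus strand) and Psc (FBgn0005624, 2R, 12965997 to 12980994, minus strand) are paralogs that point away from each other, with 15506 bases between them. On the minus strand of X lie ph-d (FBgn0004860) at 2115727 to 2123286 and ph-p (FBgn0004861) at 2126210 to 2138371, and 2923 bases between them. Pc (FBgn0003042), E(z) (FBgn0000629) and Su(z)12 (FBgn0020887) are on 3L, Sce (FBgn0003330) and Scm (FBgn0003334) on 3R, and esc (FBgn0000588) on 2L. The library kit does not mark strand, so reads from overlapping exons of 2 genes cannot be told apart. Scm shares 315 exon bases with SpdS on the other strand, Pc 60 with CG7632 and E(z) 38 with CG34001. The gene esc lies inside Pde1c on the same strand and shares no exon base with it, and the other members overlap no gene.

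Estimated counts on genes summed to between 8819116 and 50102982 per TRAP library and to 11619907 in whole brain. Genes of rRNA and mitochondrially encoded genes took 33.4% to 70.2% of a TRAP library and 4.19% of whole brain. The lowest shares were 33.4% in PARIS C571A 2 and 43.6% in PARIS WT 2, the library with the lowest total. In both, mt:ATPase6 was listed at 0, while the other TRAP libraries held 2142254 to 26851635 counts of it. These shares and totals contain that 0. Values are given as counts or as CPM, which are counts relative to the library total scaled by edgeR's TMM factors. The summed CPM of 4 DA neuron markers ranged from 332 to 479 over the 9 TRAP libraries. Of these, Vmat and Ddc had counts in every library, whereas DAT was listed at 0 in TRAP control 2 and 3, PARIS C571A 1 and 2, and PARIS WT 1 and 2, and ple in TRAP control 2 and PARIS WT 1. Markers of other cells were present in each group. Summed, 5 photoreceptor markers held 9380 to 10600 CPM in TRAP control, 10300 to 10800 with PARIS C571A and 8080 to 9670 with PARIS WT. In the same order of groups, 5 fat body markers held 8000 to 14400, 13400 to 14800 and 12600 to 13400 CPM. For 5 muscle markers the sums were 325 to 340, 382 to 502 and 362 to 441 CPM. For 5 neuron markers they were 1090 to 1480, 1460 to 1590 and 1220 to 1550 CPM. The 8 testis markers summed to 306 to 339 CPM in TRAP control, 87.9 to 114 with PARIS C571A and 13.9 to 15.9 with PARIS WT, and 5 glia markers to 677 to 730, 895 to 1020 and 782 to 895, with no marker of either list at 0 throughout. Of 4 germ line and ovary markers 1 was at 0 in all 9 libraries, and their sum was at most 1.82 CPM. The part of these marker differences in the values of the Polycomb group genes was not tested. In such bulk libraries fewer cells of a type and less RNA per cell cannot be told apart.

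Su(z)2 was the member whose count depended on the table. In the table of the 3 groups its counts were 1180, 1019 and 693 in TRAP control 1, 2 and 3. They were 1558, 1203 and 1901 with PARIS C571A and 1222, 638 and 838 with PARIS WT. In the table that holds only the 2 PARIS groups, the same PARIS C571A libraries held the same 1558, 1203 and 1901 counts, but all 3 PARIS WT libraries held 0. Each other table with TRAP control repeated the 3-group counts for every gene. Set against a floor of 3 counts per library, the table of the 2 groups put Su(z)2 at least 307-fold lower in PARIS WT (0 in 3 of 3 libraries) than in PARIS C571A (55.4 CPM ± 5.85, SD, n = 3). In the table of the 3 groups the CPM were 61.9, 57.6 and 50.4 with PARIS C571A and 65.8, 49.3 and 40.7 with PARIS WT, so the groups overlapped, with a fitted log2 fold change of −0.09 (SE 0.20). Su(z)2 was chosen for this contrast and both values are descriptions without a test.

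**Figure D1:**
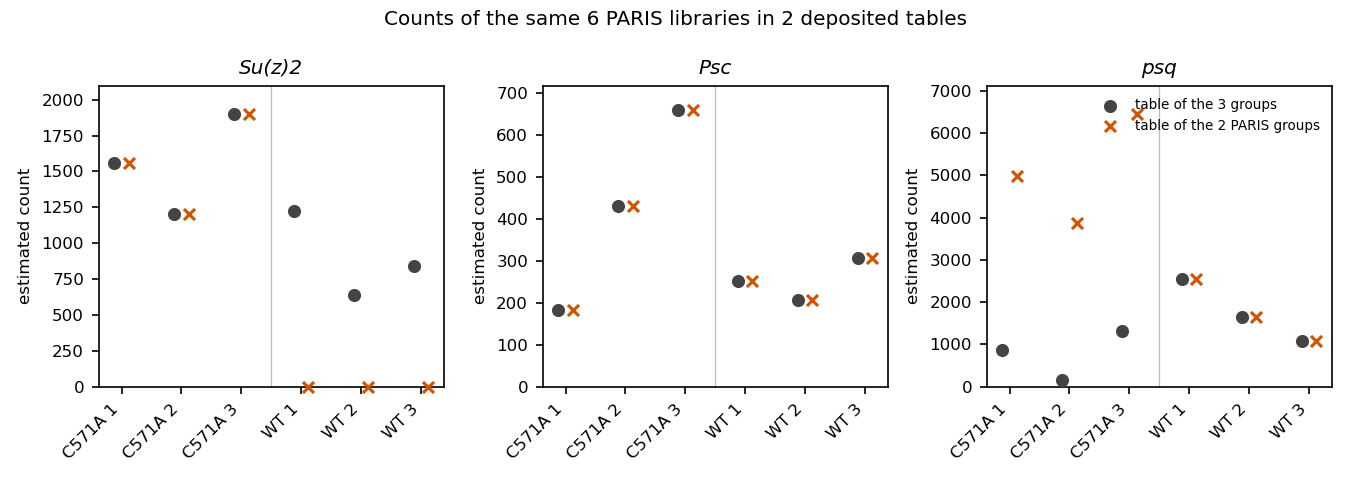
Estimated counts (vertical axis, linear) of Su(z)2, Psc and psq in the 6 PARIS libraries (horizontal axis), as held by the table of the 3 groups (grey circles) and by the table of the 2 PARIS groups (orange crosses). Su(z)2 of PARIS WT is at 638 to 1222 in one table and at 0 in the other, Psc is equal in both, and psq differs in PARIS C571A only.

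None of the other 9 members had another count in the second table. Over all genes, 761 of 17691 (4.3%) had another count in at least 1 PARIS library. Of these, 10 genes, Su(z)2 among them, differed in all 3 PARIS WT libraries and in no PARIS C571A library, and 5 of the 10, again with Su(z)2, were at 0 in PARIS WT in the table of the 2 groups and at 20 counts or more in the table of the 3 groups. With any change allowed in PARIS C571A, 52 genes were at 0 in all PARIS WT libraries of the table of the 2 groups and at 20 or more in each in the other table, and Su(z)2 ranked sixth among them by mean count (899.33 over the 3 libraries). The 5 above it were RpLP1, Pdi, eIF3m, lncRNA:CR34335 and CG31687. RpLP1, which encodes a ribosomal stalk protein, held 10554, 6734 and 13628 counts in PARIS WT and 0 in all of PARIS C571A in the table of the 3 groups. In the table of the 2 groups it held 0 in all of PARIS WT and 8920, 8327 and 15875 in PARIS C571A. The opposite also occurred: 60 genes were at 0 in PARIS WT and 66 at 0 in PARIS C571A in the table of the 3 groups with 20 counts or more in the other, while 0 genes were at 0 in PARIS C571A in the table of the 2 groups in this way. Which of both counts is the right one for Su(z)2 cannot be read from the tables.

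No gene within 20 kb of Su(z)2, Psc included, had another count. Within 200 kb, 4 of 64 genes had another count in a PARIS WT library, namely NAT1, Kdm4B, Ack-like and CG17724, which were named after their values were seen. The largest gain in the table of the 2 groups was 6514 counts, for NAT1. Summed over the genes within 200 kb, counts changed by 5409 in PARIS WT 1, −3634 in PARIS WT 2 and 6747 in PARIS WT 3. Whether counts passed between these genes and Su(z)2 was not tested. Near the other members, CG11309, within 20 kb of Pc, and wapl, within 20 kb of ph-p, differed between tables, while Pc and ph-p themselves did not. The cohesin release factor wapl was at 0 in PARIS C571A 1 and 3 and PARIS WT 2 and 3 of the table of the 3 groups, where the other table held 685, 878, 529 and 615 counts. CG11309 differed in PARIS C571A 2, with 176 against 79 counts, and in PARIS WT 1, with 513 against 508.

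Among the PRC1 genes Su(z)2 was the most abundant per length and its paralog Psc one of the lower members. Exon length differs between genes, so levels between members are compared as CPM per kb of exon over the 9 TRAP libraries of the table of the 3 groups, each as mean ± SD. The order was Su(z)2 (8.07 ± 1.18), ph-p (6.03 ± 0.583), Pc (4.48 ± 1.04), ph-d (3.82 ± 0.882), esc (3.65 ± 1.81), E(z) (3.6 ± 1.14), Psc (2.31 ± 0.620), Sce (2.29 ± 1.19), Su(z)12 (1.98 ± 0.909) and Scm (1.5 ± 1.2 CPM per kb). Su(z)2 was above ph-p in 9 of 9 libraries, ph-p above Pc in 8, Pc above ph-d in 8 and E(z) above Psc in 8. The remaining neighbours in this order, ph-d and esc, esc and E(z), Psc and Sce, Sce and Su(z)12, and Su(z)12 and Scm, changed places in 3 to 4 of the 9 libraries and do not differ beyond their spread. This order was not tested, since the libraries come from 3 groups. The place of Su(z)2 rests on the 3-group counts, which had a part in its choice. The table of the 2 groups holds 0 for it in each PARIS WT library.

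Su(z)2 and ph-p were steady across the libraries of the table of the 3 groups, while Scm, Sce and esc varied most. The coefficient of variation of CPM over the 9 libraries was 9.68% for ph-p and 14.6% for Su(z)2. For Su(z)2 this holds for the 3-group counts only, since the other table holds 0 in each PARIS WT library. Of the 5793 genes with a mean of 5 to 100 CPM, 0.829% varied less than ph-p and 6.75% less than Su(z)2, with a median of 29.7% over these genes. Psc, Pc, ph-d and E(z) had coefficients of 23.1% to 31.7%. Su(z)12 reached 45.8%, esc 49.7%, Sce 51.8% and Scm 80.1%.

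**Figure D2:**
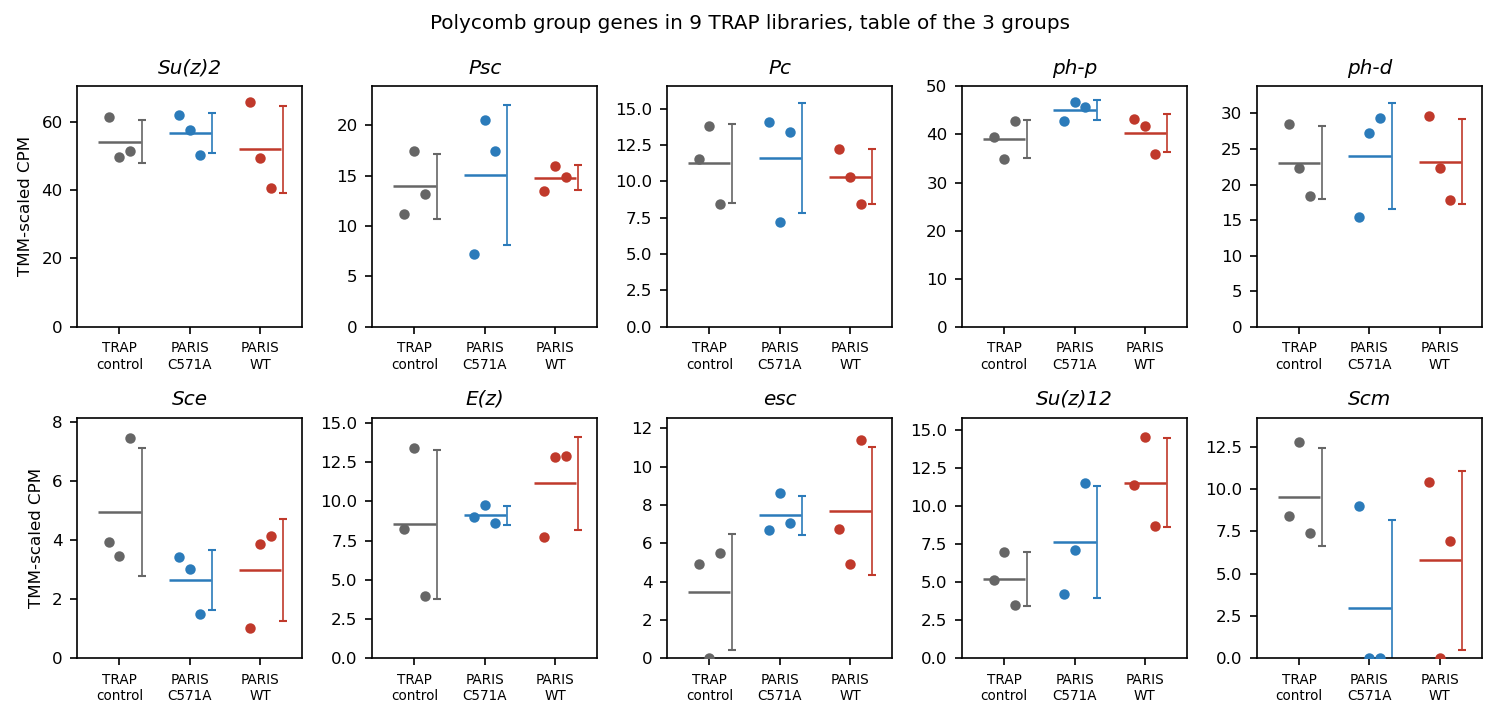
TMM-scaled CPM (vertical axes, linear, from 0) of the 10 Polycomb group genes in the table of the 3 groups, each point 1 library in the order of replicates 1 to 3, horizontal lines the group mean and bars 1 SD (n = 3). Su(z)2 and ph-p vary little, with Su(z)2 at 40.7 to 65.8 CPM over 9 libraries, and the points of Su(z)12 in PARIS WT all lie above those of TRAP control.

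Psc, the second member of the Su(z)2 pair, held 215, 360 and 177 counts in TRAP control, 182, 429 and 658 with PARIS C571A and 251, 207 and 307 with PARIS WT. In CPM the lowest and the highest library, at 7.23 and 20.5, were both PARIS C571A, and all 3 groups overlapped. Within a library of the table of the 3 groups, Su(z)2 counts exceeded those of Psc by 2.73 to 8.56 times. The summed CPM of both paralogs was 68.1 ± 3.92 in TRAP control, 71.7 ± 5.60 with PARIS C571A and 66.7 ± 11.9 with PARIS WT (SD, n = 3 each).

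ph-p held more counts than ph-d in each of the 9 libraries, in a ratio that varied. ph-p held 761, 718 and 576 counts in TRAP control, 1076, 975 and 1721 with PARIS C571A and 805, 540 and 740 with PARIS WT. ph-d held 548, 459 and 247 counts in TRAP control, 390, 567 and 1103 with PARIS C571A and 550, 289 and 367 with PARIS WT. The ratio of ph-p to ph-d ran from 1.39 in TRAP control 1 to 2.76 in PARIS C571A 1. Since reads from the identical stretches printed above could go to either gene, these ratios are uncertain. The sum was 62.2 CPM ± 5.41 in TRAP control, 69.0 ± 9.33 with PARIS C571A and 63.6 ± 9.60 with PARIS WT (SD, n = 3 each), and the groups overlapped.

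Pc and Sce complete the PRC1 list. Pc ranged from 8.42 to 13.8 CPM in TRAP control, from 7.23 to 14.1 with PARIS C571A and from 8.45 to 12.2 with PARIS WT, fully overlapping. Sce was low, with 76, 71 and 100 counts in TRAP control, 86, 63 and 56 with PARIS C571A and 19, 50 and 85 with PARIS WT. Its CPM were 3.95, 3.46 and 7.45 in TRAP control and 3.42, 3.02 and 1.49 in PARIS C571A, which did not overlap by a margin of 3.46 against 3.42.

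Of the PRC2 genes, Su(z)12 had the clearest separation. It held 99, 144 and 47 counts (5.14, 7.01 and 3.50 CPM) in TRAP control. In PARIS C571A it held 107, 149 and 434 counts (4.25, 7.14 and 11.5 CPM), and in PARIS WT 212, 188 and 179 counts (11.4, 14.5 and 8.69 CPM). Each PARIS WT library was above each TRAP control library, and PARIS C571A overlapped both. E(z) held 159, 275 and 53 counts in TRAP control, 226, 204 and 324 with PARIS C571A and 144, 166 and 265 with PARIS WT, and its groups overlapped. The summed CPM of the 3 PRC2 genes was 17.2 ± 3.83 in TRAP control, 24.2 ± 3.82 with PARIS C571A and 30.4 ± 3.91 with PARIS WT (SD, n = 3 each), a description of a sum that was not tested.

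esc was listed at 0 in 1 of the 9 TRAP libraries and Scm in 3. esc held 95, 0 and 74 counts in TRAP control, 168, 180 and 267 with PARIS C571A and 125, 64 and 235 with PARIS WT. Scm held 162, 263 and 99 counts in TRAP control, 226, 0 and 0 with PARIS C571A and 194, 0 and 143 with PARIS WT. PARIS C571A 3, one of the Scm libraries at 0, was the deepest of all. SpdS, which overlaps Scm on the other strand, held 410, 527 and 1075 counts, not scaled for depth, in PARIS C571A 1, 2 and 3. In PARIS WT 1, 2 and 3 it held 324, 199 and 650. Such zeros were common, with 1082 of the 6971 genes of at least 200 counts in their highest library (15.5%) at 0 in at least 1 of the 9 libraries, against 2 of the 9 members that reached that count. An exact 0 can be a failed estimate. The means and SDs of esc and Scm, and the PRC2 sum of TRAP control 2, contain these zeros.

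The effect of PARIS WT on these genes was asked by comparing it with TRAP control. None of the 10 members passed an adjusted p of 0.05 in edgeR's quasi-likelihood test with Benjamini-Hochberg adjustment over 9697 genes, of which 0.608% were called lower and 0.103% higher. DESeq2 called 0 members as well, where it called 6.92% of genes. At an unadjusted p under 0.05 edgeR held 1 member, Su(z)12, which was higher, where 7.4% of all genes were lower and 4.23% higher (11.6% in all). Su(z)12 had a log2 fold change of 1.14 (SE 0.40, edgeR adjusted p = 0.323, DESeq2 adjusted p = 0.174), higher in 3 of 3 PARIS WT libraries than in any control. It was the only member without overlap between the groups, where 9.68% of genes lay higher and 12.3% lower in this way (22.0% in all). The median log2 fold change of the 10 members was 0.03, beside −0.02 for all genes tested. For Su(z)2 the value was −0.06 (SE 0.21), for Psc 0.08 (SE 0.26), for ph-p 0.04 (SE 0.15) and for ph-d 0.01 (SE 0.27).

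PARIS C571A against TRAP control, which asks what the mutant does, gave no member past the threshold either. edgeR called 0.15% of 9986 genes lower and 0.02% higher, and DESeq2, which called 3.97% of genes, called 0 members. Scm has no adjusted p from DESeq2 in this comparison. No member reached an unadjusted p of 0.05 in edgeR, at which 5.32% of all genes were lower and 4.52% higher (9.83% in all). Sce was lower in 3 of 3 PARIS C571A libraries, with a log2 fold change of −0.90 (SE 0.64, edgeR adjusted p = 0.771), and esc was higher in 3 of 3, at 1.10 (SE 1.43, edgeR adjusted p = 0.919). Without TRAP control 2, the library with esc at 0, the log2 fold change of esc was 0.52, and 0.56 in PARIS WT against TRAP control in place of 1.14. No overlap between groups was seen for 10.6% of all genes in the lower and 9.86% in the higher direction, 20.5% in all. The median over the 10 members was 0.08 and over all genes 0.01.

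Between PARIS WT and PARIS C571A, the contrast by which Su(z)2 was picked, the other 9 members had the same counts in both tables. None passed the threshold, where edgeR called 0.0529% of 9460 genes in the table of the 2 groups (0.0423% lower, 0.0106% higher) and 0.0213% of 9403 in the table of the 3 groups, all higher. DESeq2 called 0 of the 9 in either table, and 3.04% and 3.08% of genes. At an unadjusted p under 0.05 edgeR held 0 of the 9, against 8.46% of genes in the table of the 2 groups (4.32% lower, 4.13% higher) and 8.3% in the other (4.21% lower, 4.08% higher). Log2 fold changes of the 9 ran from −0.13 (Pc) to 0.99 (Scm) by the 2-group counts and to 0.98 by the 3-group counts. Their median was 0.08 in both, beside −0.03 and −0.02 for all genes. No other member had groups without overlap, which 17.3% of genes showed in the table of the 2 groups (9.11% lower, 8.15% higher) and 17.1% in the other (10.1% lower, 7.06% higher). Of the 5 genes called in the table of the 2 groups, 2 had other counts in the other table, Su(z)2 and RpLP1. Su(z)2 was picked for its zeros in this contrast, so its place among the 5 is no test result. RpLP1 was called in both tables in opposite directions. In the test over all 3 groups, 0 of 10 members passed in edgeR, which called 0.751% of 10524 genes, and 0 in DESeq2, which called 6.29%. The smallest adjusted p of a member was 0.534 for Su(z)12, and 0 members had an unadjusted p under 0.05 in edgeR, against 11.8% of genes. PARIS WT, PARIS C571A and TRAP control libraries each enter more than 1 of these comparisons, so the comparisons are not independent of each other.

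**Figure D3:**
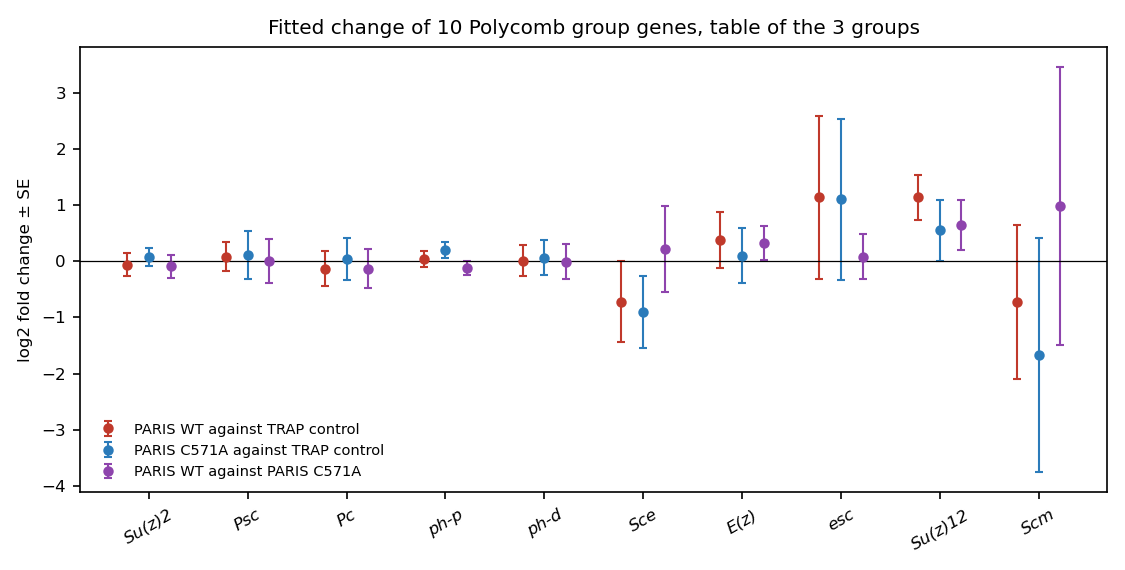
Fitted log2 fold change (vertical axis, edgeR) of the 10 genes (horizontal axis) in the 3 comparisons of the table of the 3 groups, with bars of 1 SE. Su(z)2, Psc, Pc, ph-p and ph-d lie within 0.20 of 0 in all 3, Su(z)12 is at 1.14 in PARIS WT against TRAP control, and the bars of esc and Scm are wide.

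Over the 9 TRAP libraries of the table of the 3 groups, the genes whose log2 CPM followed that of Su(z)2 most closely were hts (Pearson's r = 0.95), HP5 (0.90) and CG9717 (0.88), of 4802 genes with a mean of at least 10 CPM. hts encodes an adducin of the membrane skeleton, with 106, 76.7 and 89.9 CPM in TRAP control, 105, 85.4 and 83.8 with PARIS C571A and 105, 77.0 and 60.3 with PARIS WT. The 3 groups overlapped for hts. Counts of hts, HP5 and CG9717 were equal in both tables. ph-p ranked 384th with r = 0.51, ph-d 801st with 0.36, Pc 1036th with 0.31 and Psc 4339th with −0.44. These are descriptions over 9 libraries that share depth and scaling.

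In TRAP control against whole brain, Su(z)2, Psc, ph-p and ph-d were the members above the median of all genes in every replicate. Psc held 34 counts in whole brain against 177 to 360 in TRAP control, with log2 ratios of 3.02, 3.66 and 3.25 in replicates 1, 2 and 3. Su(z)2 held 401 counts in whole brain and had log2 ratios of 1.96, 1.65 and 1.70. For ph-p the ratios were 1.09, 0.90 and 1.2, and for ph-d 0.86, 0.51 and 0.22. These 4 members were above 0 in each replicate, which 25.7% of 12361 genes were, and also above the median of all genes of each replicate, which 34.4% were. Pc, Sce, E(z) and Su(z)12 lay on both sides of 0, between −1.48 and 0.71. esc had ratios of 1.08 and 1.22 in replicates 1 and 3 and no count in replicate 2, and Scm had −0.79, −0.19 and −0.99. With 1 whole brain library there is no test. For comparison, the DA neuron gene Vmat had ratios of 1.87, 1.92 and 2.16, Ddc 1.07, 0.74 and 1.22, and ninaE, the photoreceptor rhodopsin, 0.00, 0.17 and −0.03. The testis marker Mst87F was also above 0 in each replicate, at 0.24, 0.70 and 0.38. The glia marker repo had −2.62 and −2.36 in replicates 2 and 3 and was listed at 0 in replicate 1. The other DA neuron markers were not measured in every replicate. ple had ratios of 1.65 and 1.16 in replicates 1 and 3 and was listed at 0 in replicate 2, and DAT had 2.73 in replicate 1 and was listed at 0 in both others. The median of all genes lay at −0.17 to −0.23, and that of the 10 members 0.70, 0.66 and 0.70 above it. Without TMM factors the median of all genes fell to between −1.45 and −1.08, so ratios are best read relative to it. Then only Su(z)2 and Psc, 2 of the 10 members, were above 0 in every replicate, where 11.2% of genes were. ph-p had −0.22, −0.29 and 0.34, and ph-d −0.45, −0.69 and −0.63. The number of members above the median of all genes in every replicate was 4 with and without these factors. Leaving them out shifts all genes of a replicate by nearly the same amount, so this number does not test the scaling.

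**Figure D4:**
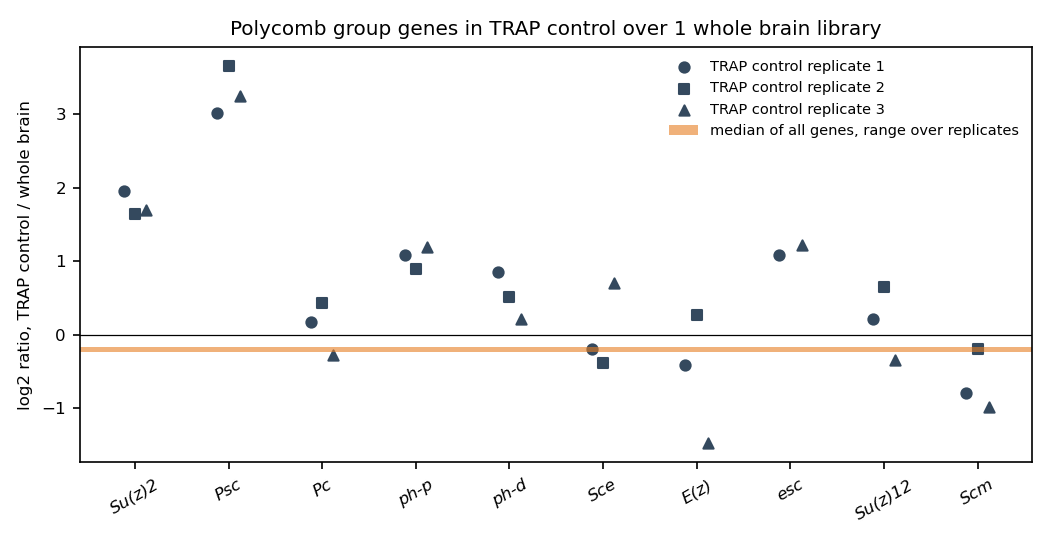
Log2 ratio of CPM in each TRAP control replicate over the single whole brain library (vertical axis) for the 10 genes (horizontal axis), with the range of the median of all genes as an orange band. Psc (3.02 to 3.66) and Su(z)2 (1.65 to 1.96) are the highest, and esc in replicate 2, with a count of 0, is left out.

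Other genes of the pathway were taken as lists by name, and none of their members passed an adjusted p of 0.05 in edgeR in any comparison. Of 16 other Polycomb group genes tested, edgeR held 0 at an unadjusted p under 0.05 in every pairwise comparison, and DESeq2 called 0. Of all genes, edgeR held 8.3% to 11.6% at that p, and DESeq2 called 3.04% to 6.92%. The median log2 fold change of the 16 genes was 0.05 in PARIS WT against TRAP control and −0.11 in PARIS WT against PARIS C571A in the table of the 3 groups. Jarid2, which accompanies PRC2, and jing had the highest mean over the 9 libraries of the table of the 3 groups, though not jing in each group, at mean CPM of 107 and 44.9 in TRAP control and 98.0 and 53.3 in PARIS WT. l(3)mbt, an MBT repeat protein, had a log2 fold change of −0.37 (SE 0.26) and sxc, which adds O-GlcNAc to proteins, 0.28 (SE 0.24) in PARIS WT against TRAP control. E(Pc), an enhancer of Polycomb, depended on the table. It held 323, 974 and 3501 counts with PARIS C571A and 1661, 0 and 502 with PARIS WT in the table of the 3 groups, against 2049, 1812 and 3501 and 1661, 1170 and 1378 in the table of the 2 groups.

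The 11 recruiters help to bring the Polycomb complexes to their sites on DNA. lolal, a BTB protein also known as batman, held 99.7, 93.5 and 80.9 CPM in TRAP control, 88.6, 83.8 and 92.3 with PARIS C571A and 52.4, 55.7 and 63.1 with PARIS WT. PARIS WT lay below both other groups in 3 of 3 libraries. Its log2 fold change was −0.68 (SE 0.14) against TRAP control, with an edgeR adjusted p of 0.111 and a DESeq2 adjusted p of 0.000658. Against PARIS C571A it was −0.59 (SE 0.12), with an edgeR adjusted p of 0.254 in both tables and DESeq2 adjusted p-values of 0.00145 and 0.00184, and the 3-group test gave 0.0919 in edgeR. In DESeq2, lolal was the 1 of 11 recruiters called in PARIS WT against either group. DESeq2 called 6.92% of all genes against TRAP control, and 3.04% and 3.08% against PARIS C571A in the tables of 2 and 3 groups. Without overlap, 2 recruiters lay lower and 3 higher in PARIS WT than in TRAP control, where 12.3% and 9.68% of all genes did. Against PARIS C571A, 9.11% and 10.1% of all genes lay lower in this way in the tables of 2 and 3 groups.

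psq, which binds GAGAG repeats, took opposite signs in the 2 tables. PARIS C571A held 861, 166 and 1314 counts in the table of the 3 groups and 4980, 3863 and 6461 in the table of the 2 groups, while PARIS WT held 2556, 1643 and 1075 in both. The log2 fold change of PARIS WT against PARIS C571A was 2.08 (SE 0.63, edgeR adjusted p = 0.414) in the former and −0.77 (SE 0.35, edgeR adjusted p = 0.632) in the latter, with no overlap between the groups in either. In PARIS C571A against TRAP control, 6 of 11 recruiters reached an unadjusted p under 0.05 in edgeR, 2 lower and 4 higher, where 9.83% of all genes did, and DESeq2 called 2, where it called 3.97% of genes. These were psq, on counts that the other table does not share, and pho. pho, the DNA-binding protein Pleiohomeotic, held 300, 282 and 185 counts in TRAP control and 883, 543 and 984 in PARIS C571A, with no overlap and the same PARIS counts in both tables. Its log2 fold change was 1.02 (SE 0.21, edgeR adjusted p = 0.198, DESeq2 adjusted p = 0.00846). In PARIS C571A against TRAP control, 9.86% of all genes lay higher without overlap. Adf1 had mean CPM of 12.9 in TRAP control and 20.2 in PARIS WT (log2 fold change 0.65, SE 0.26, edgeR adjusted p = 0.403), and cg, the most abundant recruiter, was at 213 CPM in TRAP control and 190 in PARIS WT.

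The trithorax group opposes Polycomb and keeps target genes active. Of its 20 genes, 0 passed the threshold in edgeR in any comparison, where 0.0213% to 0.751% of all genes did. The median log2 fold change of the list was 0.08 in PARIS WT against TRAP control and 0.21 in PARIS WT against PARIS C571A in the table of the 3 groups. trx, the histone methyltransferase that names the group, held 260, 253 and 238 CPM in TRAP control, 205, 224 and 191 with PARIS C571A and 247, 290 and 247 with PARIS WT. PARIS C571A lay below both other groups, and PARIS WT was higher than it by 0.38 on the log2 scale (SE 0.11, edgeR adjusted p = 0.407, DESeq2 adjusted p = 0.0481). Of all genes, 10.6% lay lower in PARIS C571A than in TRAP control without overlap, and 7.06% higher in PARIS WT than in PARIS C571A. kis, a chromodomain helicase and the most abundant of the list, held 744, 621 and 518 CPM in TRAP control, 389, 388 and 344 with PARIS C571A and 558, 474 and 368 with PARIS WT. Its log2 fold change in PARIS C571A against TRAP control was −0.75 (SE 0.16, edgeR adjusted p = 0.198, DESeq2 adjusted p = 5.29e-05). Mnn1, the fly menin, had 0.74 (SE 0.37, edgeR adjusted p = 0.561) in PARIS WT against TRAP control. wds was at 0 in all PARIS WT libraries of the table of the 2 groups and at 149, 168 and 105 counts in the table of the 3 groups.

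Of the 8 Hox genes, 5 were tested in each comparison of PARIS WT and 6 in PARIS C571A against TRAP control, and 0 passed in edgeR. In these comparisons edgeR called 0.0213% to 0.712% of all genes. Antp, a thoracic Hox gene, had lower values in both PARIS groups, with 19.9, 18.4 and 19.2 CPM in TRAP control, 1.99, 5.94 and 4.11 with PARIS C571A and 6.25, 2.24 and 6.07 with PARIS WT. Its log2 fold change was −1.98 (SE 0.43, edgeR adjusted p = 0.121, DESeq2 adjusted p = 0.0014) in PARIS WT and −2.25 (SE 0.45, edgeR adjusted p = 0.193, DESeq2 adjusted p = 0.000431) in PARIS C571A against the same TRAP control libraries. Antp was the 1 Hox gene that DESeq2 called in each of these comparisons, where it called 6.92% and 3.97% of all genes. Without overlap, 12.3% of all genes lay lower than TRAP control in PARIS WT and 10.6% in PARIS C571A. Dfd, a Hox gene of the head, held 27.5, 26.4 and 18.9 CPM in TRAP control, 22.8, 19.6 and 20.7 with PARIS C571A and 27.4, 32.8 and 33.5 with PARIS WT. It was higher in PARIS WT than in PARIS C571A in 3 of 3 libraries (log2 fold change 0.61, SE 0.16, edgeR adjusted p = 0.326, DESeq2 adjusted p = 0.0989). In the table of the 3 groups, 7.06% of all genes lay higher in this way. Scr was at 10.6 CPM in TRAP control and 11.6 in PARIS WT. pb was listed at 0 in TRAP control 1 and in PARIS C571A 1 and 2.

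Of 10 other genes known as Polycomb targets, 5 were tested in each comparison with TRAP control and 6 in PARIS WT against PARIS C571A, and 0 passed in edgeR or DESeq2. Of all genes, edgeR called 0.0213% to 0.712% there and DESeq2 3.04% to 6.92%. ey, which directs eye development, had a log2 fold change of −0.47 (SE 0.26, edgeR adjusted p = 0.764) in PARIS WT against PARIS C571A and −0.03 (SE 0.28) against TRAP control. Dll was at 8.59 CPM in TRAP control and 11.1 in PARIS WT, and tsh at 10.7 and 11.6. en was listed at 0 in 5 of the 9 libraries.

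**Figure D5:**
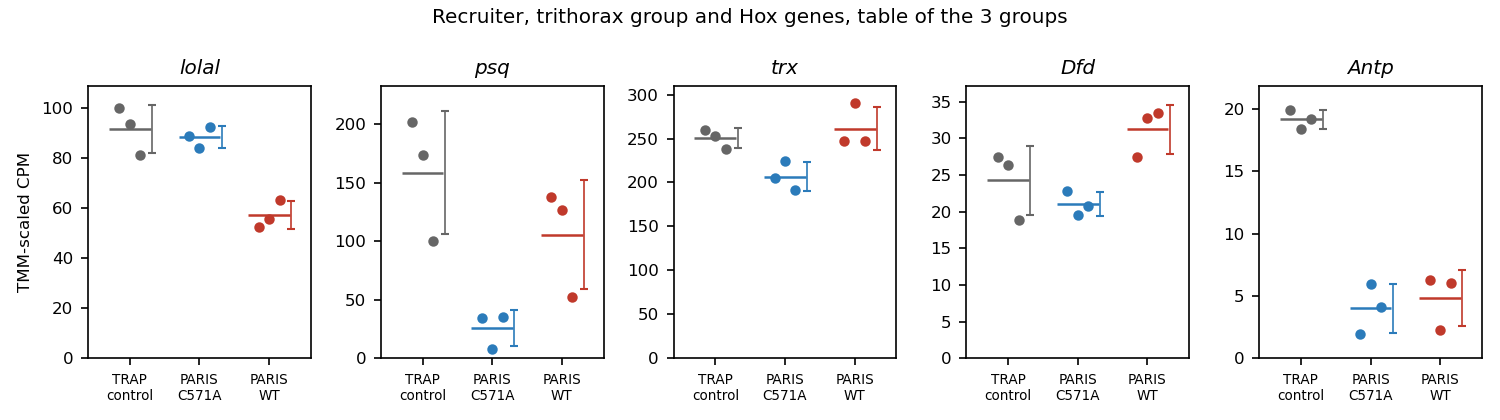
TMM-scaled CPM (vertical axes, linear, from 0) of lolal, psq, trx, Dfd and Antp in the table of the 3 groups, each point 1 library in the order of replicates 1 to 3, lines the group mean and bars 1 SD (n = 3). lolal is lower in PARIS WT (52.4 to 63.1), Antp is lower in both PARIS groups, and the low psq values of PARIS C571A rest on counts that the other table gives as 3863 to 6461.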

How the data were processed

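TRAP-seq libraries of 3 groups (TRAP control, PARIS WT, PARIS C571A, 3 each) and 1 whole brain library were analysed from 5 tables. The authors aligned reads with HISAT2 2.1.0 to BDGP6.28, estimated abundances with StringTie 2.0 and its correction for multi-mapped reads, and deposited estimated counts per gene as whole numbers without normalization. Why the same libraries hold other counts in different tables is not given in the sources used here. Entries that name no gene, at most 0.0209% of a library, were left out. Symbols and positions came from Ensembl's BDGP6.54 annotation of the same assembly, in which 17619 of 17716 identifiers were found. Of the other lists, calypso was not matched, and nos was not matched among the markers.

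Genes were kept by filterByExpr (minimum count 10, total 15), TMM-scaled and tested by edgeR 4.0.16 in R 4.3.3 (quasi-likelihood F-test, Benjamini-Hochberg, threshold 0.05) on the libraries of the groups compared. The SE was derived from the log2 fold change and F. DESeq2 1.42.0 was an alternative, beside other size factors and filters, library sizes without rRNA and mitochondrial genes, a replicate block, all groups in one fit, pair tables and leaving out libraries. Both tests were tried on simulated data. TRAP control was set against whole brain as log2 ratios of CPM with a prior count of 1. ph-p and ph-d were aligned with mafft 7.526. Tables and plots were made with pandas 2.3.3 and matplotlib 3.10.9 in Python 3.11.15.

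No replicate pair agreed within counting noise, and the spread between libraries, described as independent biological samples, sets the precision. The members and lists were chosen with earlier results of these data known. Named were all members, from each other list up to 3 genes with the smallest unadjusted p in a comparison of PARIS WT and the 2 with the highest CPM, the 3 genes most like Su(z)2, and the 5 most abundant genes at 0 in 1 table only. E(Pc), wds and pho, and the values of kis and psq in PARIS C571A against TRAP control, were chosen after their values were seen. Human PARIS reads, reads and ChIP-seq data were not analysed here.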

Additional observations from a re-analysis of the deposited data

How the results depend on the processing

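Su(z)2 in the contrast that picked it is left aside here, since its zeros there fixed the outcome. No other value of a member passed the threshold under any alternative run. Of 550 log2 fold changes of members under alternatives, 55 changed sign, in members whose main value was at most 0.22 in size. The number of genes called over all genes depended on the test. DESeq2 called 321 (table of the 2 groups) and 323 (table of the 3 groups) genes in PARIS WT against PARIS C571A, 741 in PARIS WT against TRAP control, 439 in PARIS C571A against TRAP control and 675 among the 3 groups, where edgeR called 5, 2, 69, 17 and 79. All 3 groups in one fit called 35 genes in PARIS WT against PARIS C571A. With a replicate block the counts were 0, 0, 2, 0 and 16. Replicate numbers share only a number: correlations of deviations were −0.0316 to 0.0632 for the same number and −0.0561 to 0.0387 for others. Leaving out each library in turn gave 0 to 23, 2 to 17, 13 to 44, 3 to 18 and 33 to 63 genes. Leaving out replicate 2 of both PARIS groups, chosen after seeing that mt:ATPase6 is at 0 there, gave 3 in the table of the 2 groups. The median log2 ratio of the 10 members in TRAP control over whole brain, taken over mean ratios per gene, was 0.14, and 0.16 to 0.40 without 1 control replicate. Without TMM factors it was −0.98, where all genes lay at −1.46. Taken instead within each replicate and then averaged, the median of the members lay 0.69 above that of all genes. This second value was 0.66 with a prior count of 5, and 0.68 to 0.70 without 1 control replicate. Scm without PARIS C571A 1 had only zeros in that group and a fitted log2 fold change of −10.73, which is no bound. No detection limit was computed for single members, so a p that missed the threshold does not show that levels were equal.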
